A study of Mus musculus with 5 samples.

Results

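Cells make cholesterol from acetyl-CoA, take it up in lipoproteins and pass the excess on to carriers outside the cell. The 32 genes described here serve that balance: 17 enzymes of synthesis, 5 genes that control the transcription factors of synthesis, 3 genes of uptake and transfer, and 7 genes of the liver X receptors (LXR), export and storage. They lie across the genome, for example (mm10, GENCODE M21 gene spans) Sqle at chr15:59315077-59331192, Srebf2 at chr15:82147181-82205379 and Abcg1 at chr17:31057675-31117988, all protein-coding. They were chosen by symbol from a fixed list, with earlier results of these data known. All 32 were among the 46959 gene symbols of the count tables. The cells were D4m.3a, a mouse melanoma line from a C57BL/6 animal, at passages 7 to 12. Total RNA of both lines was sequenced: the control line with the retroviral vector pBABE (2 libraries, the reference), and the line called caMNK, in which the kinase MNK1 is constitutively active (3 libraries). Both groups carry the melanoma line's own mutations, and each condition is 1 engineered line that the labels describe neither as a clone nor as a pool. Whatever else sets these lines apart cannot be told apart from the kinase.

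When sterol in the endoplasmic reticulum is low, SCAP carries the SREBP factors to the Golgi, where they are cut free and switch on the genes of synthesis and uptake. INSIG proteins hold SCAP back when sterol is plentiful. Oxysterols, which build up with cholesterol, activate LXR, which switches on export through ABCA1 and ABCG1 and the receptor-degrading ligase encoded by Mylip. In textbook regulation the SREBP-induced and the LXR-induced genes thus respond to sterol in opposite directions, and the comparison of caMNK with pBABE was read for both groups.

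The libraries held between 27827199 and 48794336 counts, with 17026 genes abundant enough to test. Mknk1, the gene of the introduced kinase, measured 15.2 and 16.7 CPM (a gene's counts relative to its library's total, scaled by edgeR's TMM factors) in pBABE and 167, 155 and 168 CPM in caMNK. In the whole comparison 599 genes (3.52%) were lower in caMNK and 753 (4.42%) higher. Scaling by total counts moved the median of all genes by 0.051 on the log2 scale and made this 465 lower (2.73%) and 999 higher (5.87%). Replicates 2 and 3 of caMNK lay at opposite ends of the second principal component (21.3% of the variance). Of 12 pigment cell markers 4 were abundant enough to test, and Dct, Tyrp1 and Slc45a2 were at 0 in every library. Sox10, Tyr and Mlana, which also define the lineage, had 2, 4 and 4 counts over all 5 libraries. The sum of the 12 was 30.3 to 33.0 CPM in pBABE and 32.6 to 34.998 CPM in caMNK, most of it from Pax3. The sum of 8 leukocyte markers was 13.4 and 14.97 CPM in pBABE and 13.3 to 18.2 CPM in caMNK, nearly all of it Csf1r, which shares reads with Hmgxb3, and Cd68, while C1qa was at 0. The sum of 5 keratinocyte markers was 3.79 and 3.72 CPM in pBABE and 5.09 to 5.19 CPM in caMNK, with Krt1 at 0. Nearly all of it was Krt10, the only 1 tested, which did not pass (edgeR adjusted p = 0.113). The sum of 4 hepatocyte markers was at most 0.209 CPM. The sum of 5 endothelial markers was 5.47 and 9.51 CPM in pBABE and 3.57 to 3.70 CPM in caMNK, and most of it was Cdh5, which fell (log2 fold change −1.43, edgeR adjusted p = 0.0141). The scarce Tek and Pecam1, also tested, went the other way without passing (log2 fold changes 0.82 and 1.07, edgeR adjusted p = 0.213 and 0.264). The Cdh5 call was lost without pBABE replicate 2 (−0.95, adjusted p = 0.123) or caMNK replicate 1 (0.0653). Mitochondrial mRNAs moved with the group: 6 of 10 tested rose, and the sum over 13 was 12290 and 13533 CPM in pBABE against 18772 to 21665 CPM in caMNK. Among 7 nuclear non-coding RNAs tested, 3 rose and 1 fell, with sums of 557 and 577 CPM in pBABE and 829.9 to 1100 CPM in caMNK. The part of these shifts in the results below was not tested. In RNA of a whole culture, less RNA per cell and fewer expressing cells cannot be told apart.

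Of the 31 members abundant enough to test, 11 fell in caMNK and 0 rose (edgeR quasi-likelihood test, adjusted p under 0.05 over all genes tested). Of all genes tested, 3.52% fell and 4.42% rose. At an unadjusted p under 0.05 there were 19 lower and 3 higher members (all genes: 12.1% lower, 13.8% higher), and DESeq2 called 11 lower and 0 higher (all genes: 4.48% and 5.54%). The genes that fell were Hmgcs1, Idi1, Fdps, Sqle, Lss, Cyp51, Nsdhl and Sc5d among the enzymes, the factor genes Srebf1 and Srebf2, and the exporter gene Abcg1. The median log2 fold change (caMNK over pBABE) of the 31 members was −0.34, against −0.0021 over all genes tested, with a range from −0.95 to 0.54. In 22 members every caMNK library lay below both pBABE libraries, which held for 22.6% of all genes tested, and in 4 members every caMNK library lay above (22.3% of all genes). With 1 pBABE library left out, no member passed (lowest adjusted p of 0.138 without replicate 1 and 0.116 without replicate 2). The log2 fold changes of the 11 genes ran from −1.07 to −0.33 and from −0.84 to −0.44 in those fits, against −0.95 to −0.39 with all libraries. Few genes of any kind passed in those fits, with 0.0705% of all genes lower in each and 0.0646% and 0.129% higher. Without caMNK replicate 1 only Sqle passed (adjusted p = 0.0431, with 0.476% of all genes lower and 1.03% higher). Without caMNK replicate 2 there were 18 lower members and 3 higher (15.6% and 13.5% of all genes), and without caMNK replicate 3 there were 13 and 1 (4.7% and 5.42%). Total-count scaling left 7 lower members and 0 higher (2.73% and 5.87% of all genes). With no filter on low counts 17 members were lower and 1 higher (4.75% and 5.69% of all genes), with Mvk, Mvd, Fdft1, Stard4, Abca1, Lpcat3 and the higher Mylip gained, and a stricter filter left 10 lower and 0 higher (3.53% and 4.55%). When every gene that shares reads was set aside, 6 of 21 members were lower and 0 higher (2.9% and 3.89% of all genes). A fit with the replicate number as a block gave 15 lower and 1 higher (7.31% and 8.63%), with Mvk, Mvd, Fdft1, Lpcat3 and Mylip gained.

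**Figure D1:**
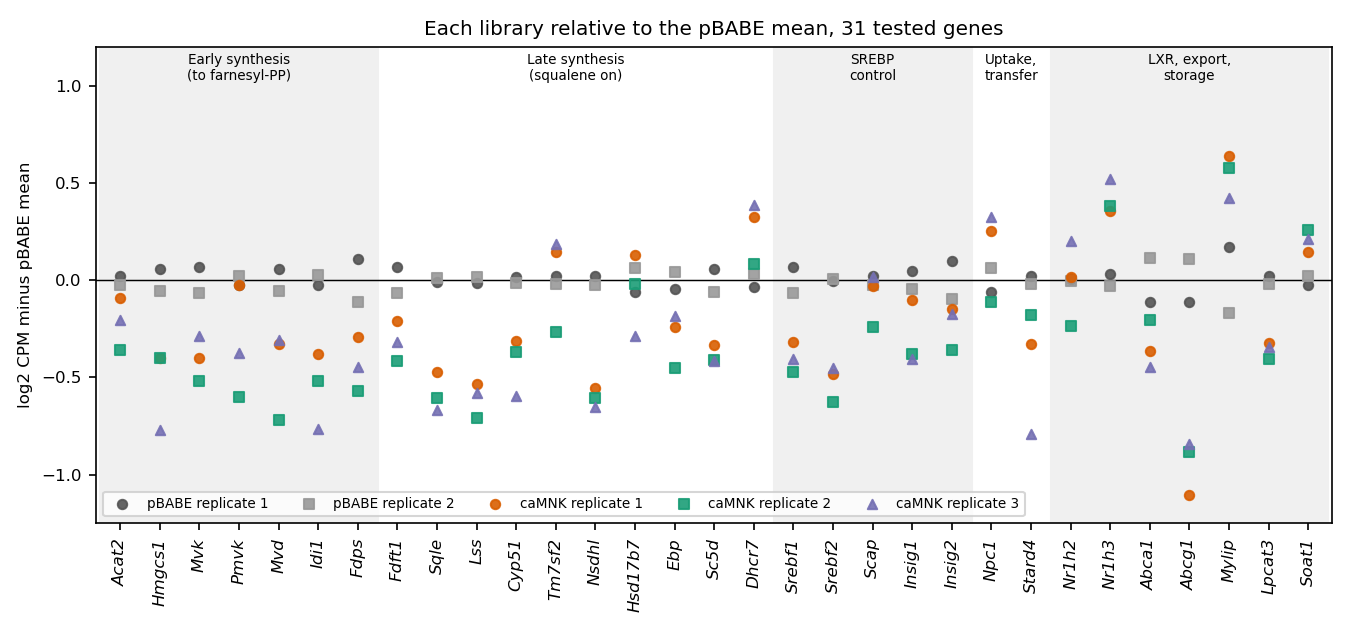
Log2 CPM (prior count 2) of each tested member in each of the 5 libraries, minus the mean of the 2 pBABE libraries, with genes ordered by role on the horizontal axis. In 22 genes all 3 caMNK libraries lie below both pBABE libraries, and in Dhcr7, Nr1h3, Mylip and Soat1 all 3 lie above.

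The early steps of the pathway join acetyl-CoA units into the isoprenoid farnesyl diphosphate. All 7 enzyme genes of this stretch had lower values in every caMNK library than in either pBABE library, and 3 of them passed the test. Over all genes tested, 22.6% had such lower values and 3.52% passed as lower. Hmgcs1, which encodes the synthase of HMG-CoA, the precursor of mevalonate, measured 134 and 123 CPM in pBABE and 97.1, 97.1 and 75.1 CPM in caMNK. It was 1.43-fold lower (a log2 fold change of −0.52, SE 0.123, adjusted p = 0.0403), with replicate 3 the lowest. Idi1, the isomerase that makes the reactive isoprene unit, measured 36.0 and 37.2 CPM in pBABE and 28.1, 25.5 and 21.5 CPM in caMNK, thus 1.46-fold lower (a log2 fold change of −0.55, SE 0.121, adjusted p = 0.0313). Its caMNK values again had replicate 3 at the bottom. Fdps, the synthase of farnesyl diphosphate, measured 96.6 and 82.8 CPM in pBABE against 73.0, 60.2 and 65.6 CPM in caMNK (1.36-fold lower, adjusted p = 0.0475). The span of Fdps holds 7512 bases of the gene Gm43738 on the same strand, whose reads cannot be told apart from its own and whose log2 fold change was −0.42 (adjusted p = 0.0559), beside −0.44 for Fdps. For the 3 genes the adjusted p was 0.221 to 0.395 without pBABE replicate 1, 0.155 to 0.234 with pBABE replicate 2 left out and 0.0650 to 0.0993 without caMNK replicate 1. Fdps also lost its call with total-count scaling (0.0764) and with a stricter filter on low counts (0.0549), and Hmgcs1 when genes that share reads were left out (0.0518).

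The other 4 early enzymes had values on the same side without passing. Mvk, mevalonate kinase, measured 19.2 and 17.5 CPM in pBABE and 13.8, 12.8 and 14.97 CPM in caMNK (log2 fold change −0.41, SE 0.113, adjusted p = 0.0630). Mvd, the decarboxylase of the route, had 10.8 and 10.04 CPM against 8.30, 6.32 and 8.43 CPM (−0.45, SE 0.152, adjusted p = 0.104). Mvd lies whole within Gm20388, a gene on the opposite strand with far more counts, which itself fell (−0.48 on the log2 scale, adjusted p = 0.0187). Pmvk, the kinase between them, had 11.18 and 11.6 CPM in pBABE and 11.15, 7.47 and 8.76 CPM in caMNK, where replicate 1 lay just under the pBABE libraries (−0.33, SE 0.167, adjusted p = 0.260). Acat2, the thiolase of the first step, had the least difference of the 7, with 34.7 and 33.7 CPM against 32.1, 26.7 and 29.7 CPM (−0.22, SE 0.104, adjusted p = 0.230). Mvk passed without caMNK replicate 2 (0.0135) or caMNK replicate 3 (0.0347), and Mvd without caMNK replicate 2 (0.0417). Both passed with no filter on low counts (0.0216 and 0.0252) and with the replicate block (0.00907 and 0.0108).

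From squalene on, the route builds the sterol rings and trims them to cholesterol. Of 10 genes of this stretch, 5 fell and 0 rose (all genes: 3.52% and 4.42%), and the median log2 fold change was −0.35 (−0.44 over the 7 early enzymes). Sqle, squalene epoxidase, a rate-limiting oxygen-dependent step, measured 84.2 and 85.5 CPM in pBABE and 61.2, 55.8 and 53.3 CPM in caMNK. With the 2 pBABE libraries close together and the caMNK libraries well below them, it was 1.495-fold lower (a log2 fold change of −0.58, SE 0.0898, adjusted p = 0.0103), the lowest adjusted p among the members. Lss, lanosterol synthase, which closes the rings, had 29.96 and 30.6 CPM in pBABE and 20.9, 18.5 and 20.3 CPM in caMNK, 1.52-fold lower (−0.61, SE 0.0972, adjusted p = 0.0111). On the opposite strand, 4930483K19Rik overlaps Lss by 11268 bases, and it fell too (log2 fold change −0.47, adjusted p = 0.0325). Nsdhl, a sterol dehydrogenase that helps remove methyl groups, had 23.5 and 22.8 CPM in pBABE and 15.7, 15.2 and 14.7 CPM in caMNK, also 1.52-fold lower (−0.61, SE 0.0965, adjusted p = 0.0110). The caMNK libraries lay close together, and no gene with counts of 10% or more of its own overlaps it.

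Cyp51, the demethylase of lanosterol, measured 91.5 and 89.5 CPM in pBABE and 72.7, 69.9 and 59.9 CPM in caMNK (1.34-fold lower, log2 change −0.42, SE 0.101, adjusted p = 0.0406). It meets Akap9 over 166 bases on the opposite strand, and Akap9 itself differed by −0.37 on the log2 scale (adjusted p = 0.138). Sc5d, sterol desaturase, measured 42.8 and 39.4 CPM in pBABE and 32.7, 30.9 and 30.8 CPM in caMNK (1.31-fold lower, −0.39, SE 0.0901, adjusted p = 0.0372). Across these 5 genes no caMNK library reached the pBABE range. Their adjusted p was 0.138 to 0.352 without pBABE replicate 1, 0.116 to 0.248 with pBABE replicate 2 left out, and, apart from Sqle, 0.0539 to 0.129 without caMNK replicate 1. Cyp51 and Sc5d lost their calls with total-count scaling (0.0588 and 0.0624).

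The other 5 late genes split. Fdft1, squalene synthase, had 58.9 and 53.6 CPM in pBABE and 48.6, 42.1 and 45.05 CPM in caMNK (log2 fold change −0.32, SE 0.0968, adjusted p = 0.0815). Its 3′ end meets the much more abundant Ctsb over 774 bases on the opposite strand. Ebp, the sterol isomerase, had 15.02 and 15.96 CPM against 13.1, 11.3 and 13.6 CPM (−0.29, SE 0.118, adjusted p = 0.166). In both genes the groups did not overlap, without passing the test, and Fdft1 passed without caMNK replicate 2 (0.0144). Hsd17b7, a ketosteroid reductase of demethylation, overlapped between groups, with 19.1 and 20.8 CPM in pBABE and 21.8, 19.7 and 16.3 CPM in caMNK. Tm7sf2, a sterol reductase, overlapped as well, with 8.90 and 8.65 CPM against 9.69, 7.28 and 9.999 CPM, and it shares reads with Vps51. Their log2 fold changes of −0.051 and 0.029 (adjusted p = 0.854 and 0.931) changed sign with the library left out. Dhcr7, a reductase near the end of the route, was the synthesis gene on the other side: 24.9 and 26.2 CPM in pBABE and 32.04, 27.1 and 33.4 CPM in caMNK (log2 fold change 0.27, SE 0.113, adjusted p = 0.177). All 3 caMNK libraries were above both pBABE libraries, and without caMNK replicate 2 the call was passed (0.35, adjusted p = 0.00425).

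**Figure D2:**
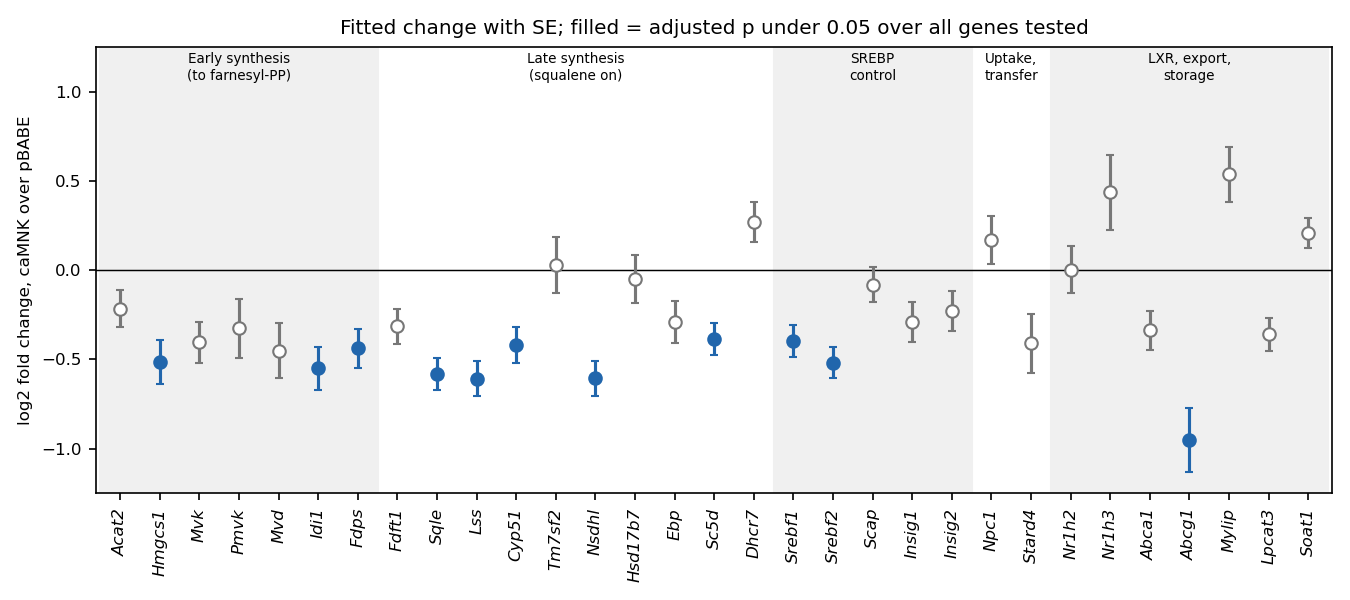
Log2 fold change of caMNK over pBABE with its SE for the 31 tested members, grouped by role, where filled points have an adjusted p under 0.05 over all genes tested. The filled points are 8 synthesis enzymes, Srebf1, Srebf2 and Abcg1, all below 0, and Mylip at 0.54 is the highest open point.

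Promoter sequence from RefSeq (GRCm38.p6) was at hand for 26 of the 32 members, with 35 windows that run from 250 bases before to 50 bases after a start. The upstream stretches of 4 enzyme genes that fell are shown as examples of the letters searched in them. They lie at chr13:119690101-119690350 (plus strand) for Hmgcs1, chr10:76531355-76531587 (plus strand, ending before the first annotated start) for Lss, chr9:42264301-42264550 (minus strand) for Sc5d and chrX:72918271-72918520 (plus strand) for Nsdhl. Capitals mark matches, on either strand, to the sterol regulatory element TCACNCCAC, the CCAAT box bound by NF-Y, or the E-box CACGTG.
Hmgcs1: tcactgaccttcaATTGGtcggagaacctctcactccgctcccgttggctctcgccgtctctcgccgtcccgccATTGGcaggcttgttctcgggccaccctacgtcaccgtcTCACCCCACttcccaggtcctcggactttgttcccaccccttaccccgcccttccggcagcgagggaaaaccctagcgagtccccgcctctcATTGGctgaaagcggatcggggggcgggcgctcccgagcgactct
Lss: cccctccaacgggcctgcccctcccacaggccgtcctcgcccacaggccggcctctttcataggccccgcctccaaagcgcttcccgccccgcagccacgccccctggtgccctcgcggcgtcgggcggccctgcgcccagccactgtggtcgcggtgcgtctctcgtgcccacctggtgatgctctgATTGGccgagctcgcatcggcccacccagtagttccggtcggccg
Sc5d: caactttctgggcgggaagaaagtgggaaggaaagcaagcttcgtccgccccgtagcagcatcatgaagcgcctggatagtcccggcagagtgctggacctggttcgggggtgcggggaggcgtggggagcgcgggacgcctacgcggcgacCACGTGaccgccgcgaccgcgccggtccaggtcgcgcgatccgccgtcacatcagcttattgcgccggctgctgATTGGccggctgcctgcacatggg
Nsdhl: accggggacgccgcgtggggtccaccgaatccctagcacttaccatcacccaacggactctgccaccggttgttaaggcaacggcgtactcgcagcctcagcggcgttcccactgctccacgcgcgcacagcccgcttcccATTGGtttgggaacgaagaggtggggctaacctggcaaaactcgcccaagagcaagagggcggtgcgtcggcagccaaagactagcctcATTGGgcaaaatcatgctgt
The sterol element TCACNCCAC was found in 1 of 35 member windows, that of Hmgcs1, where it begins 137 bases before the start, and in 1.24% of all 32851 windows. CCAAT, read as ATTGG where it lies on the other strand, was found in 22 of the 35 (62.9%) and in 37.4% of all windows. It was present in 9 of the 10 windows of the 8 genes that fell and have a sequence. The sterol element and CACGTG were each present in 1 of these 10, those of Hmgcs1 and Sc5d, which are both among the stretches shown. CACGTG was found in 7 of the 35 windows and in 7.15% of all, and the direct repeat bound by LXR in 0 of 35 and 0.0152% of all. None of these motifs overlapped another in the stretches shown. A match is a description of letters in these windows, and many known elements differ from these spellings or lie elsewhere.

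Srebf2 encodes the SREBP factor that mainly drives cholesterol synthesis, and Srebf1 the one that mainly drives fatty acid synthesis. Both fell, 2 of the 5 control genes (3.52% of all genes fell). Srebf2 measured 169.5 and 171 CPM in pBABE and 122, 110.02 and 124 CPM in caMNK. The pBABE libraries were nearly equal and the caMNK libraries all well below them, a 1.43-fold lower level (log2 fold change −0.52, SE 0.0879, adjusted p = 0.0131). Srebf1, which both SREBP and LXR induce, measured 129.8 and 118 CPM in pBABE against 99.2, 89.3 and 93.7 CPM in caMNK, 1.32-fold lower (−0.40, SE 0.0897, adjusted p = 0.0335). It meets Rai1 over 109 bases, and Rai1 had a log2 fold change of 0.021. The adjusted p of Srebf2 and Srebf1 was 0.167 and 0.336 without pBABE replicate 1, 0.146 and 0.174 with pBABE replicate 2 left out, and 0.0696 and 0.107 without caMNK replicate 1. Srebf1 also lost its call with total-count scaling (0.0562).

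None of the 3 genes that hold or move the SREBP factors passed. Scap, the escort, measured 60.04 and 58.2 CPM in pBABE and 57.9, 50.1 and 59.7 CPM in caMNK, with overlapping groups (log2 fold change −0.082, SE 0.0998, adjusted p = 0.657), and it shares reads with 5830462I19Rik. Insig1, a retention factor that is itself an SREBP target, measured 56.6 and 53.1 CPM in pBABE and 51.1, 42.2 and 41.3 CPM in caMNK (−0.29, SE 0.111, adjusted p = 0.144). Insig2, its relative, measured 25.8 and 22.5 CPM against 21.8, 18.8 and 21.4 CPM (−0.23, SE 0.113, adjusted p = 0.240). Both had all caMNK libraries below pBABE without passing the test with all 5 libraries, and Insig1 passed without caMNK replicate 2 (0.0452). Whether Scap and Srebf2 differ in their change was not tested.

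None of the uptake and transfer genes passed. Npc1, which moves cholesterol from lipoproteins out of the lysosome, measured 73.9 and 80.5 CPM in pBABE and 92.1, 71.3 and 96.8 CPM in caMNK (log2 fold change 0.17, SE 0.133, adjusted p = 0.475). Replicate 2 of caMNK was below both pBABE libraries and replicates 1 and 3 above, and without it the fold change was 0.29 (adjusted p = 0.00748). Npc1 shares reads with Gm15956. Stard4, a carrier of cholesterol in the cytosol and an SREBP target, measured 27.5 and 26.7 CPM in pBABE and 21.6, 23.97 and 15.7 CPM in caMNK (−0.41, SE 0.164, adjusted p = 0.159). Its caMNK libraries were all lower but far apart, with replicate 3 the lowest, and without replicate 2 it passed (−0.56, adjusted p = 0.00371). Npc1l1, the intestinal sterol importer, had 0 and 1 counts in pBABE and 1 in each caMNK library, too few to test.

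Of the 7 genes of LXR, export and storage, 1 fell and 0 rose, with 3 below and 3 above pBABE in every caMNK library. Over all genes tested, 3.52% fell and 4.42% rose, and 22.6% lay below and 22.3% above in every caMNK library. The receptor gene Nr1h2 (LXR-beta) measured 31.04 and 30.8 CPM in pBABE and 31.3, 26.2 and 35.5 CPM in caMNK, with a log2 fold change of 0.0030 (SE 0.130, adjusted p = 0.992) that changed sign with the library left out. Nr1h3 (LXR-alpha) was scarce, at 1.10 and 1.05 CPM in pBABE and 1.39, 1.42 and 1.57 CPM in caMNK (0.43, SE 0.212, adjusted p = 0.237). Its groups did not overlap, at a total of 247 counts over all libraries.

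Abcg1, an exporter that loads cholesterol onto mature HDL, fell from 3.31 and 3.87 CPM to 1.64, 1.91 and 1.97 CPM, 1.93-fold lower (a log2 fold change of −0.95, SE 0.179, adjusted p = 0.0179). This was the largest change among the members, in a gene with 476 counts in all. Its adjusted p was 0.138 without pBABE replicate 1, 0.186 with pBABE replicate 2 left out and 0.0827 without caMNK replicate 1. Abca1, the exporter to lipid-poor apolipoprotein, measured 102 and 119 CPM in pBABE and 85.6, 95.7 and 80.9 CPM in caMNK (−0.34, SE 0.107, adjusted p = 0.0884). Both exporters had every caMNK library below both pBABE libraries, and Abca1 passed without caMNK replicate 2 (0.00128). Lpcat3, an LXR-induced enzyme that puts polyunsaturated chains into phospholipids, measured 26.6 and 25.8 CPM in pBABE and 20.9, 19.8 and 20.6 CPM in caMNK (−0.36, SE 0.0926, adjusted p = 0.0504). It passed without caMNK replicate 2 (0.00681) or replicate 3 (0.0499), and it meets Emg1 over 334 bases.

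Mylip, the LXR-induced ubiquitin ligase that marks lipoprotein receptors for breakdown, was the LXR target on the other side. It measured 5.54 and 4.37 CPM in pBABE and 7.70, 7.36 and 6.62 CPM in caMNK (log2 fold change 0.54, SE 0.154, adjusted p = 0.0685). All caMNK libraries were above both pBABE libraries, and the test was passed without caMNK replicate 2 (0.0164) or replicate 3 (0.0462), but not without either pBABE library (0.213 and 0.447). Soat1, which esterifies cholesterol for storage, measured 74.7 and 77.3 CPM in pBABE and 84.01, 91.03 and 88.04 CPM in caMNK (0.21, SE 0.0839, adjusted p = 0.163). Here too the groups did not overlap.

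Set against each other, the SREBP-induced and the LXR-induced members both had lower means in every caMNK library. The mean log2 CPM of the 20 tested SREBP-induced members (the enzymes with Insig1, Stard4 and Npc1) was 5.08 and 5.05 in the pBABE libraries and 4.86, 4.66 and 4.71 in the caMNK libraries. The mean of the 4 LXR-induced members (Abca1, Abcg1, Mylip and Lpcat3) was 3.91 and 3.93 in pBABE and 3.63, 3.69 and 3.62 in caMNK. These 4 genes did not move alike, and their lower mean depends on the scarce Abcg1 (476 counts in all). The log2 fold change was −0.95 for Abcg1, −0.34 for Abca1, −0.36 for Lpcat3 and 0.54 for Mylip. Relative to the pBABE mean, Mylip stood at 0.64, 0.58 and 0.42 in caMNK replicates 1, 2 and 3. Abca1 stood at −0.36, −0.20 and −0.45 and Lpcat3 at −0.33, −0.40 and −0.34, which Mylip nearly offsets in replicates 1 and 2. Without Abcg1 the LXR-induced mean would thus lie close to pBABE in those libraries. The small shift of the difference given below rests on this gene. On the log2 scale the first mean was 0.32 lower in caMNK, since it went from 5.07 ± 0.0204 (SD, n = 2) to 4.74 ± 0.103 (n = 3), and the second went from 3.92 ± 0.0123 to 3.65 ± 0.0385. Their difference within a library was 1.171 and 1.12 in pBABE and 1.23, 0.97 and 1.09 in caMNK. These differences overlapped between the groups, and the shift of the mean (−0.051) was smaller than the SD of the caMNK libraries (0.128). Without caMNK replicate 2 the shift was 0.012. No p is given for these means, since the members were chosen with results known.

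**Figure D3:**
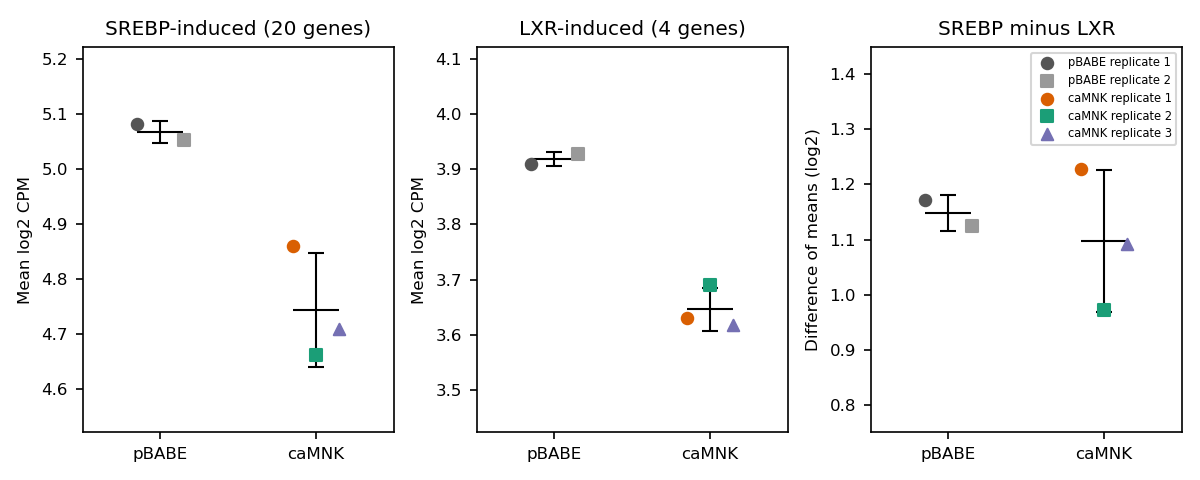
Mean log2 CPM of 20 SREBP-induced members, of 4 LXR-induced members, and their difference, for each library (points) with the group mean and SD (bars; n = 2 pBABE, n = 3 caMNK); the 3 vertical axes span the same log2 range and none starts at 0. Both means are lower in every caMNK library, while the differences overlap between groups. The lower LXR-induced mean and this overlap depend on Abcg1.

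The caMNK libraries did not rank alike over the members. Among the 17 synthesis enzymes, replicate 1 was the lowest caMNK library in 0 genes, replicate 2 in 10 and replicate 3 in 7, against 21.7%, 41.0% and 37.3% of all genes tested. The enzymes with replicate 3 lowest were Hmgcs1, Idi1, Sqle, Cyp51, Nsdhl, Hsd17b7 and Sc5d. Relative to the pBABE mean, the median over the 17 enzymes was −0.31, −0.45 and −0.37 in replicates 1, 2 and 3, and 14, 15 and 15 of the enzymes lay below both pBABE libraries. Over all genes tested, 42.3% to 43.3% lay below both pBABE libraries in the same 3 libraries.

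Per kilobase of gene body, introns included, levels in pBABE ranged over the members from 0.00081 CPM per kb for Npc1l1 to 10.7 for Fdps. After Fdps came Insig1 (7.51), Hmgcs1 (7.29) and the receptor gene Nr1h2 (7.13). On this scale the pBABE libraries of Hmgcs1 overlapped those of Insig1 and of Nr1h2, while those of Insig1 lay above those of Nr1h2. The value of Fdps includes the reads it shares with Gm43738. Srebf1, Idi1 and Sqle followed at 5.28, 5.27 and 5.26, which do not differ beyond their spread. Abcg1 (0.062) and Nr1h3 (0.057) were the lowest of the tested genes, and Abca1 was at 0.86. The deposited length counts introns, so genes with long introns such as Abca1 read low on this scale.

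Among further genes of the mevalonate route and its branches, Msmo1, the methylsterol oxidase of the cholesterol line, fell from 86.2 and 85.5 CPM to 67.6, 66.4 and 63.3 CPM (−0.38 on the log2 scale, SE 0.0810, adjusted p = 0.0264). Every caMNK library lay below both pBABE libraries. Lbr, a nuclear membrane protein with sterol reductase activity, had a value of −0.36 (adjusted p = 0.0686). It passed by DESeq2 (0.0448), with no filter on low counts (0.0110) and without caMNK replicate 2 (0.00234). The list's genes for ubiquinone, dolichol and protein prenylation did not pass. Msmo1 lost its call without pBABE replicate 1 (0.267), with pBABE replicate 2 left out (0.231) and without caMNK replicate 1 (0.116).

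Among 8 tested lipoprotein receptor genes, 3 fell and 0 rose (all genes: 3.52% and 4.42%), with a median of −0.37. The count of lower genes was 1 without caMNK replicate 1 (0.476% of all genes) and 6 without caMNK replicate 2 (15.6%). It was 6 with the block (7.31% of all genes) and 7 of 9 with no filter (4.75%). Sort1, a sorting receptor that binds lipoproteins, fell from 29.6 and 26.5 CPM to 15.5, 13.001 and 16.1 CPM, 1.89-fold lower (a log2 fold change of −0.92, SE 0.121, adjusted p = 0.00720). Lrp8 and Vldlr, receptors that the Mylip ligase is known to target, fell from 96.0 and 97.6 CPM to 64.3, 74.3 and 61.4 CPM (−0.54, SE 0.1003, adjusted p = 0.0178) and from 214 and 204 CPM to 173, 162 and 165 CPM (−0.33, SE 0.0821, adjusted p = 0.0458). In all 3 genes each caMNK library lay below both pBABE libraries. Their calls were lost without pBABE replicate 1 (0.125, 0.181 and 0.371) and replicate 2 (0.0727, 0.174 and 0.262), those of Lrp8 and Vldlr without caMNK replicate 1 (0.0983 and 0.154), and that of Vldlr without caMNK replicate 3 (0.0541), with a stricter filter (0.0514), with total-count scaling (0.0821) and when read-sharing genes were set aside (0.0554).

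Of all genes tested, 3.52% fell and 4.42% rose by edgeR with all libraries, and 4.48% and 5.54% by DESeq2. At an unadjusted p under 0.05, 12.1% of all genes were lower and 13.8% higher. None of 12 genes for SREBP processing and sterol-dependent protein turnover passed edgeR's test with all libraries, or DESeq2's (3 lower and 0 higher at an unadjusted p under 0.05, median −0.15). The lowest p in this list belonged to Trim35 (log2 fold change −0.24, adjusted p = 0.114), Erlin2 (−0.30, 0.125) and the SREBP protease gene Mbtps1 (−0.23, 0.133). Without caMNK replicate 2, 6 of the 12 were lower (15.6% of all genes), these 3 among them (0.00736, 0.000765 and 0.0127). None of 22 genes of intracellular sterol transport passed edgeR's test with all libraries (3 lower and 4 higher unadjusted, median −0.017). DESeq2 called 1 lower, Osbp, and 1 higher, Npc2, the lysosomal partner of Npc1, which is named after its value was seen. The sterol exchanger gene Osbp stood at a log2 fold change of −0.34 (adjusted p = 0.0539), Osbpl6 0.27 (0.0859) and Gramd1a 0.39 (0.0932). The adjusted p of Osbp was 0.0423 by DESeq2, 0.0217 with no filter on low counts and 0.0496 with the replicate block. Without caMNK replicate 2, 4 genes of this list were lower and 5 higher (15.6% and 13.5% of all genes). With no filter the counts were 2 and 3 (4.75% and 5.69% of all genes). Of 15 tested LXR partners, further LXR targets and oxysterol or sterol ester enzymes, 1 rose and 0 fell by edgeR with all libraries, with a median of −0.21 (6 lower and 3 higher unadjusted, and 0 lower and 1 higher by DESeq2). The rise was that of Cyp46a1, a cholesterol hydroxylase best known from neurons, from 0.408 and 0.465 CPM to 1.53, 1.01 and 1.32 CPM (log2 fold change 1.54, SE 0.304, adjusted p = 0.0213). It is a low-abundance gene, and its call was lost without pBABE replicate 1 (0.224), pBABE replicate 2 (0.136) or caMNK replicate 1 (0.0783). The LXR partner gene Rxra stood at −0.33 (adjusted p = 0.0947) and the corepressor gene Ncor1, which shares reads with Ttc19, −0.35 (0.0904). Rxra passed with the replicate block (0.00349), with no filter (0.0285) and without caMNK replicate 2 (0.0201) or 3 (0.0246). Ncor1 passed with the block (0.0480), with no filter (0.0105) and without caMNK replicate 2 (8.46e-05). Without caMNK replicate 2, 6 genes of the list were lower and 1 higher (15.6% and 13.5% of all genes). With no filter, where 21 genes of the list were tested, 4 were lower and 2 higher (4.75% and 5.69% of all genes). With the block 3 were lower and 2 higher. The block called 7.31% of all genes lower and 8.63% higher.

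**Figure D4:**
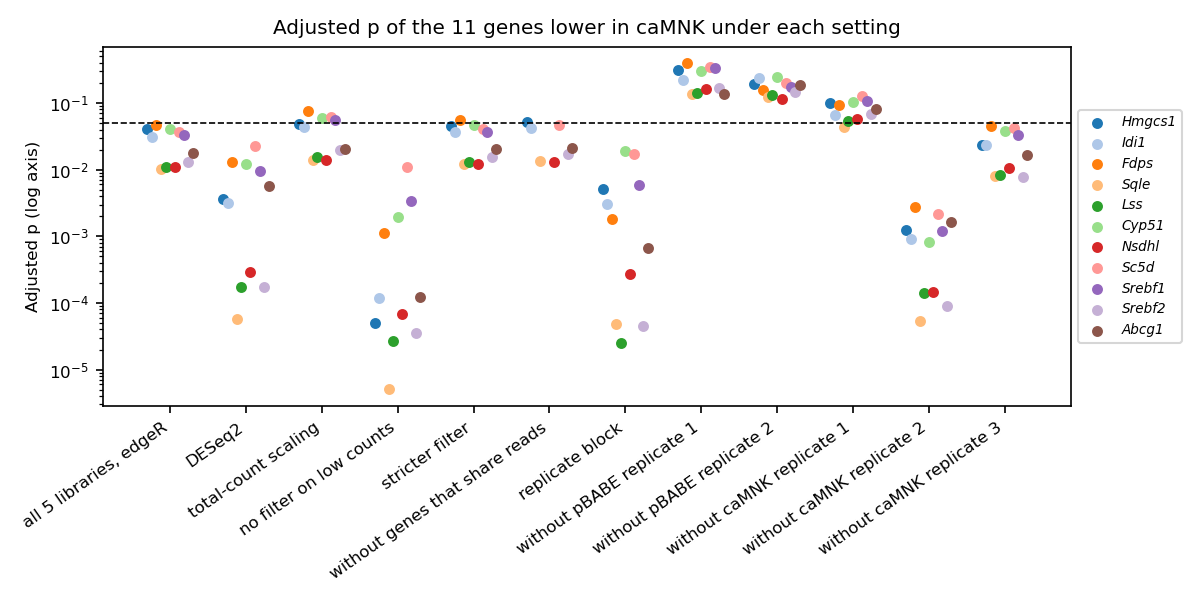
Adjusted p, on a log axis, of the 11 members that fell, with all libraries by edgeR and under each of 11 other settings; the dashed line is 0.05, and 4 genes that share reads have no point where such genes are left out. All points lie above the line without pBABE replicate 1 or 2, and all lie below it by DESeq2, without a filter on low counts, with the replicate block, and without caMNK replicate 2 or 3.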

How the data were processed

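Total RNA of 5 D4m.3a libraries (2 pBABE, 3 caMNK, grouped by title) was sequenced after a TruSeq Stranded Total RNA preparation, per the labels' protocols. The deposited values are raw read counts per gene, 1 table per library. The submitters' processing notes name the build mm10, featureCounts 1.5.3, the aligner STAR 2.5.3 and Trimmomatic 0.32. Neither the annotation used nor the counting settings are given there. Of 27739 multi-exon genes matched by symbol to GENCODE M21, 21639 deposited lengths equal the genomic span and 0 the summed exons. Counts thus include introns. In 926 of 926 pairs with a gene nested in one on the opposite strand (774 of 774 on the same strand, inner gene with 100 counts or more), the outer gene had at least the inner gene's count in every library, so reads in overlapping genes entered both, whatever the strand. A gene whose overlapping neighbour has 10% or more of its counts (10 members) is named with it.

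The counts were tested with edgeR 4.0.16 in R 4.3.3 (filterByExpr, TMM, quasi-likelihood F test, group only, 17026 genes, Benjamini-Hochberg, threshold 0.05), and the SE was derived from the fold change and F (absolute log2 value over root F). DESeq2 1.42.0 and the settings in the closing section were alternatives. The script was tested on simulated data: of 100 genes changed 1.5-fold, 70 were called, and of 100 changed 2-fold, 100, with 13 unchanged genes called. All members are named, as are the 3 genes of lowest p in each of 5 further pathway lists, except for 1 gene that is not reported here. Members and lists were chosen with earlier results of these data known. Biological replicates are named in the series text, with no word on separate cultures, so p-values measure only the spread between these libraries, which may be technical.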

Additional observations from a re-analysis of the deposited data

How the results depend on the processing

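The direction of all 11 called members was the same in each of the 11 alternatives that tested them. In these 11 genes every caMNK library lay below both pBABE libraries, so leaving out 1 library could hardly turn the sign. The count of lower members (11 with all libraries) was 7 with total-count scaling, 17 with no filter on low counts and 6 when read-sharing genes were set aside, and ran from 0 to 18 over fits without 1 library. Higher members numbered 0, and 1 (Mylip) without the filter and with the replicate block, with 0 to 3 when 1 library was left out. Of the synthesis enzymes, 8 were lower, against 5 with total-count scaling and 4 when read-sharing genes were set aside, with 0 to 11 over left-out libraries. Over all genes, 1330 were lower and 1591 higher with no filter, 310 and 415 with read-sharing genes set aside, and 1245 and 1469 with the replicate block, while left-out libraries gave 12 to 2658 lower and 11 to 2305 higher.

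Same-numbered libraries did not deviate together (correlation of deviations −0.055 for number 1 and −0.025 for number 2), so the numbers are not taken as pairs. The replicate block over 4 libraries (caMNK replicate 3 has no partner) called 15 members lower. The median log2 fold change of the members ran from −0.39 to −0.29 over all alternatives. The SREBP minus LXR shift ran from −0.12 to 0.012 when 1 library was left out. Fits with a lone pBABE library assume that it varies like the caMNK libraries. Signs turned for 3 uncalled genes: Tm7sf2 (0.029) to −0.062 with the block, and −0.027 and −0.062 without caMNK replicate 1 and 3, against 0.16 without caMNK replicate 2. Hsd17b7 (−0.051) went to 0.0037 with total-count scaling, 0.056 with the block, and 0.014 and 0.056 without pBABE replicate 2 and caMNK replicate 3, against −0.15 without caMNK replicate 1. Nr1h2 (0.0030) went to −0.0069 without the filter, −0.11 with the block, and −0.00076, −0.0040 and −0.11 without pBABE replicate 2, caMNK replicate 1 and caMNK replicate 3, against 0.11 without caMNK replicate 2. The cause of these changes was not tested. Depth limits Npc1l1 (4 counts), Nr1h3 and Abcg1.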
